A study of Homo sapiens with 15 samples.

Results

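FOXA1 occupancy was compared between parental 22Rv1 cells that received pladienolide B (PladB) or the solvent DMSO. 22Rv1 is an established line from a human prostate cancer. Both were profiled by chromatin immunoprecipitation followed by sequencing (ChIP-seq), with 1 library each. The members are all peaks of the 2 deposited lists, 30557 with DMSO and 33121 with PladB. Together they make 63678 of the 249079 peaks in the 12 FOXA1 lists of the series. Another parental library, from cells given a control small interfering RNA (siControl, 34119 peaks), served as the reference for how far separate libraries agree.

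All 3 groups are labelled with the parental genotype, and no added construct is listed for them. DMSO was given at 0.1%, and both DMSO and PladB exposures lasted 3 h. The labels differ on the PladB dose: the sample's own label gives 100 nM and the shared protocol gives 10 nM for parental cells, so the dose is uncertain. They give no time or amount for the control RNA, and siControl is therefore a separate library under another control treatment and not a replicate of DMSO. With 1 library in each group no difference could be set against a spread between replicates, and no p-value is given. Peak lists hold no expression values, so the labelled cell type could not be checked against marker genes. The 3 input libraries of the series were not analysed here.

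FOXA1 is a forkhead transcription factor that can bind compacted chromatin, and in prostate cells it marks enhancers used with the androgen receptor. Pladienolide B binds the SF3B complex of the U2 spliceosomal particle, where SF3B1 and PHF5A meet, and blocks recognition of the intron branch point. It is not known as a ligand of FOXA1. The comparison therefore addresses whether FOXA1 location changes with a compound whose known target is the splicing machinery.

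FOXA1 was called at most of the same sites with PladB as with DMSO. Of the 30557 DMSO peaks, 26947 were overlapped by a PladB peak by 1 bp or more and are called kept. The other 3610, 11.8% of the list (95% interval 11.5 to 12.2%), had no PladB peak and are called lost. With siControl, 3627 DMSO peaks were lost (11.9%, 11.5 to 12.2%), so the intervals for the 2 libraries overlap almost entirely. In the other direction, 6411 PladB peaks had no DMSO peak and are called gained, which is 19.4% of the PladB list (18.9 to 19.8%), against 7331 or 21.5% (21.1 to 21.9%) of the siControl list. Intervals here and below are Wilson 95% binomial intervals. They reflect counting error alone and take each peak as an independent draw. Both comparisons share the DMSO library.

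PladB and siControl shared more sequence with each other than either did with DMSO. Of the siControl peaks, 84.6% (84.2 to 85.0%) were called with PladB, and 13.2% (12.8 to 13.5%) of the PladB peaks had no siControl peak. Measured in base pairs, the DMSO and PladB lists shared 20.4 Mb, which is 64.5% of the sequence covered by either. The corresponding share was 64.1% for DMSO and siControl and 68.5% for PladB and siControl. This measure depends on list size, and DMSO peaks covered the least sequence, 23.1 Mb against 28.9 Mb with PladB and 28.0 Mb with siControl. Of the DMSO sequence, 88.3% lay in PladB peaks and 86.4% in siControl peaks. Of the PladB sequence 70.5% lay in DMSO peaks and 80.0% in siControl peaks. Of the siControl sequence 71.3% lay in DMSO peaks and 82.6% in PladB peaks.

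Merging the 3 lists gave 40345 regions, of which 25138 (62.3%, 61.8 to 62.8%) were called in all 3 libraries. PladB alone called 2893 regions (7.17%, 6.92 to 7.43%), fewer than the 3782 of siControl alone (9.37%, 9.09 to 9.66%) and more than the 2118 of DMSO alone (5.25%, 5.04 to 5.47%). Regions missing only from PladB numbered 1473, close to the 1461 missing only from siControl, while 3480 were missing only from DMSO. The order of the single-library counts follows the order of list length. Regions called with PladB alone were weak, with a median PladB score of 107 against 311 for PladB peaks in regions of all 3 lists. Scores were deposited by the authors, and how they are defined is not given in the sources used here.

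**Figure D1:**
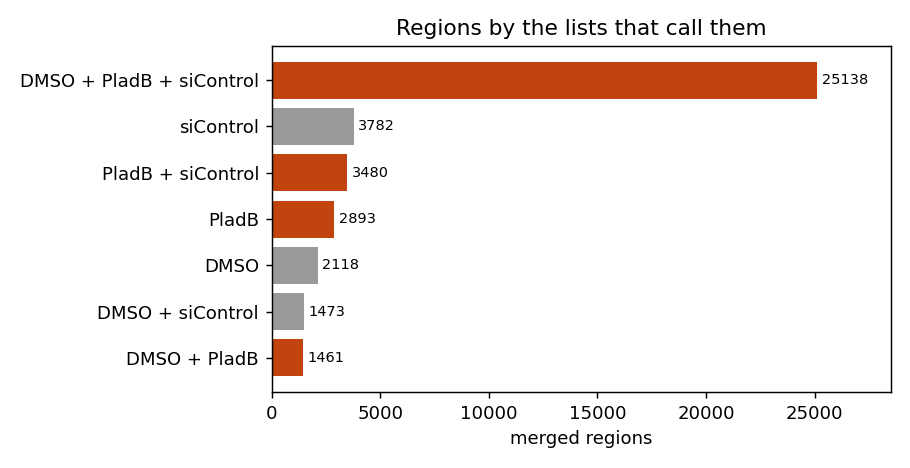
Number of merged regions (horizontal axis) for each combination of the DMSO, PladB and siControl lists, with combinations that include PladB in orange. The 25138 regions called in all 3 lists exceed every other class, and regions called with PladB alone (2893) lie between those of DMSO alone (2118) and siControl alone (3782).

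The 3 score distributions were alike, so equal score ranks stood for similar score values. The median score was 228 with DMSO, 227 with PladB and 225 with siControl. The lowest score in any of the 3 lists was 90, and many of the strongest peaks share a score of 3100, 248 of them with DMSO and 190 with PladB, so the order within that group is not resolved. Scores above 1000 were given to 9.57% of DMSO and 9.53% of PladB peaks.

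None of the strongest 20% of DMSO peaks by score went missing with PladB. Each list was divided into 10 classes of equal size by score. In the 2 highest DMSO classes, with scores of 586.06 and above, which hold 3055 and 3056 peaks, 0 were lost with PladB and 0 with siControl. The next classes lost 4, 3 and 22 peaks with PladB, against 6, 4 and 35 with siControl. Losses then rose steeply. The class with scores from 148.46 to 182.19 was called at 89.8% (88.7 to 90.8%) with PladB, and the lowest class, under 104.37, at 54.3% (52.5 to 56.1%). The siControl values for these 2 classes were 88.8% (87.6 to 89.8%) and 53.7% (52.0 to 55.5%).

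Lost peaks were therefore almost all weak. Their median DMSO score was 110, against 265 for kept peaks, and 87.7% of them lay in the lowest 30% of the list by score. Only 29 of the 3610 lay in the upper 50%, and 45 of the 3627 peaks lost with siControl did. Gained peaks followed the same order: their median PladB score was 115, against 293 for PladB peaks shared with DMSO. In the upper 50% of the PladB list 157 of the gained peaks were found, and 278 of those gained with siControl were in the upper 50% of that list. In each of the 10 classes the share of peaks found again in DMSO was higher for PladB than for siControl, with intervals that overlap in the 3 highest and the 2 lowest classes.

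**Figure D2:**
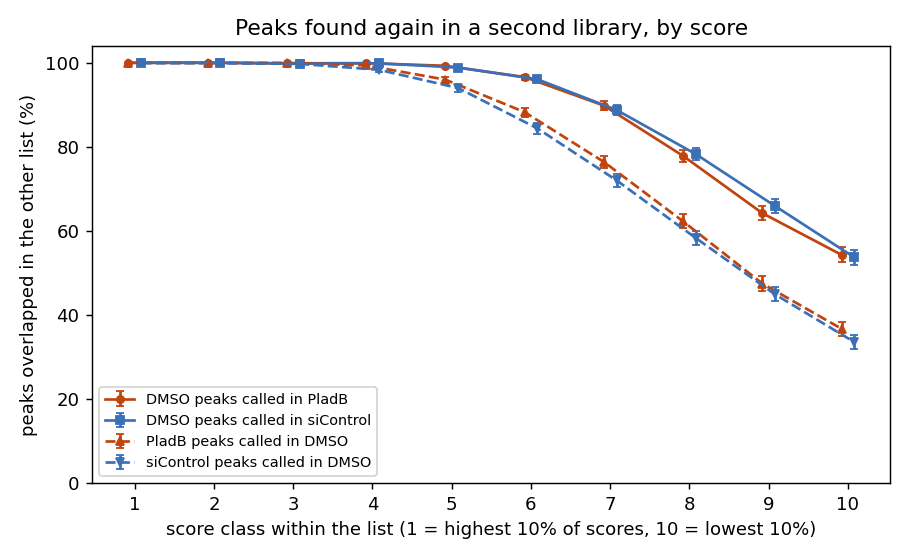
Share of peaks overlapped in a second list (vertical axis, percent, with Wilson 95% intervals) for 10 score classes within the first list, from the highest 10% of scores at left to the lowest 10% at right. Solid lines look up DMSO peaks in PladB (orange) and siControl (blue), and run together from 100% in the strongest classes to 54.3% and 53.7% in the weakest, while dashed lines look up PladB and siControl peaks in DMSO.

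The order of the strongest sites was closer between DMSO and PladB than between DMSO and siControl. Of the 1000 strongest DMSO peaks, 864 overlapped one of the 1000 strongest PladB peaks (86.4%, 84.1 to 88.4%). With siControl the number was 781 (78.1%, 75.4 to 80.6%), and between PladB and siControl it was 811 (81.1%, 78.6 to 83.4%). At 5000 peaks per list the shares were 88.8% (87.9 to 89.6%), 85.6% (84.6 to 86.5%) and 87.2% (86.2 to 88.1%) in the same order. At 20000 peaks the first 2 were 87.8% (87.4 to 88.3%) and 86.5% (86.1 to 87.0%), a smaller gap than at 1000. PladB and siControl then shared 87.8% (87.3 to 88.2%), the same as DMSO and PladB after rounding. At 30557 peaks per list PladB and siControl shared the most, 86.1%, against 85.2% for DMSO and PladB and 84.2% for DMSO and siControl. All 1000 of the strongest DMSO peaks were called somewhere in the whole PladB list, and 999 of the 1000 strongest PladB peaks were called in the DMSO list.

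Over sites that matched 1 to 1, scores kept their order. With PladB and siControl cut to the 30557 highest-scoring peaks, the length of the DMSO list, 25419 pairs were found for DMSO and PladB, and Spearman's rho between their scores was 0.90. It was 0.88 over 25183 pairs for DMSO and siControl and 0.90 over 25979 pairs for PladB and siControl. These are descriptions across sites, which share the genome sequence, the copy number of the line and the library, and are not independent. The median site moved by 1868.5 places in rank between DMSO and PladB, and by 2146 between DMSO and siControl.

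The same sites were called at the same place but over wider intervals with PladB. Among 26309 pairs of peaks that matched 1 to 1, the midpoints lay a median of 44 bp apart with PladB and 42 bp apart with siControl. Midpoints over 250 bp apart were found in 518 pairs (1.97%) with PladB and in 453 of 26376 (1.72%) with siControl. The PladB peak was the wider one in 79.6% of pairs, and the median width ratio was 1.14 (quartiles 1.02 and 1.30). For siControl against DMSO the ratio was 1.09 (0.97 and 1.24), and for siControl against PladB it was 0.96 (0.87 and 1.06). Median widths over the whole lists were 682 bp with DMSO, 773 bp with PladB and 729 bp with siControl. PladB peaks covered 28.9 Mb, against 23.1 Mb with DMSO and 28.0 Mb with siControl.

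The size of the width difference depended on how sites were ranked. Sorted by DMSO score, the ratio of PladB to DMSO width was 1.07 in the strongest class and 1.39 in the weakest. Sorted by PladB score, the ratio of DMSO to PladB width lay between 0.85 and 0.92 in all 10 classes, with no such slope. In the median, PladB peaks were wider in every class under both rankings, and the steep rise at weak sites was seen under the DMSO ranking alone. The siControl list behaved likewise, with a ratio of siControl to DMSO width that reached 1.35 in the weakest class by DMSO score, and of DMSO to siControl width between 0.88 and 0.98 by siControl score. Fragment lengths and read totals were not analysed here.

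**Figure D3:**
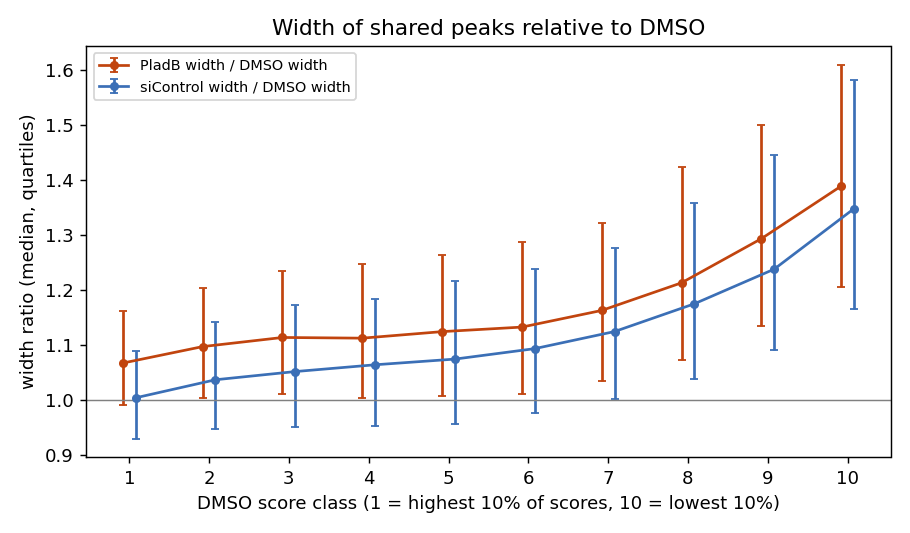
Ratio of the peak width with PladB (orange) or siControl (blue) to the width of the same site with DMSO (vertical axis; points are medians and bars the quartiles) in 10 classes of DMSO score. The PladB medians run from 1.07 to 1.39 and lie above the siControl medians in every class.

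Splitting and merging of peaks was rare. Of the DMSO peaks, 67 (0.219%) overlapped 2 PladB peaks, while 297 PladB peaks (0.897%) overlapped 2 or 3 DMSO peaks. With siControl the counts were 101 and 238.

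Narrow DMSO peaks were lost more often than wide ones, with scores moving in parallel. In the narrowest 10% of DMSO peaks, under about 443 bp, 60.0% (58.2 to 61.7%) were called with PladB, against 99.4% (99.0 to 99.6%) in the widest 10%. The median DMSO score of these classes was 105 and 1179. Within the lowest 20% by score, 66.3% (64.2 to 68.3%) of the widest tertile were kept and 53.8% (51.7 to 56.0%) of the narrowest. The median scores of these tertiles were 109 and 99.3, so score still differed between them. The siControl values there were 64.0% (61.9 to 66.1%) and 55.2% (53.0 to 57.3%). Lost peaks had a median width of 493 bp and kept peaks of 712 bp.

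Over all scores, clustering along the chromosome made little difference to which sites were kept, while among the weakest peaks crowded ones were kept somewhat more often. The median DMSO peak lay 23.5 kb from its nearest neighbour in the list. DMSO peaks with a neighbour closer than 2 kb were kept at 89.3% (88.2 to 90.3%), and those with none within 200 kb at 88.1% (85.5 to 90.2%). The 3 spacing classes between these were kept at 88.0 to 88.1%. Among the lowest 20% by score, 65.5% (61.9 to 68.9%) were kept with PladB where a neighbour lay within 2 kb (crowded peaks). At 2 to 10 kb 57.2% (54.3 to 60.1%) were kept, and at 10 to 50 kb 57.9% (56.0 to 59.8%). Both of these intervals lie wholly below that of the crowded peaks. The share was 60.0% (57.6 to 62.4%) at 50 to 200 kb and 60.3% (52.3 to 67.7%) over 200 kb, and both of these intervals overlap that of the crowded peaks. With siControl the crowded peaks were kept at 64.0% (60.4 to 67.4%). The shares were lower at 2 to 10 kb (60.0%, 57.1 to 62.8%), 10 to 50 kb (58.4%, 56.4 to 60.3%) and 50 to 200 kb (59.6%, 57.1 to 62.0%). Over 200 kb from a neighbour the siControl share was 66.9% (59.0 to 73.9%), in a class of 151 peaks. A PladB peak that overlaps 2 or 3 DMSO peaks counts each of them as kept, and 297 PladB peaks did so. How many crowded peaks were kept only through a PladB peak that also covered their neighbour was not tested.

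Lost and gained peaks were not shifted versions of each other in most cases. The median lost peak lay 22.5 kb from the nearest PladB peak, and 138 of the 3610 (3.82%) had one within 500 bp. The median gained peak lay 25.1 kb from the nearest DMSO peak, and 220 of the 6411 (3.43%) had one within 500 bp. For siControl the corresponding shares were 4.16% and 3.22%.

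Lost peaks were spread over all 24 chromosomes. The share of DMSO peaks lost with PladB ranged from 8.90% on chromosome 14, where 79 of 888 peaks were lost, to 15.6% (13.3 to 18.1%) on chromosome X, where 138 of 887 peaks had no PladB peak. The 95% interval lay wholly above the 11.8% of the whole list on chromosomes 1, 22 and X, and wholly below it on chromosome 14. These are 24 intervals with no adjustment for their number. With siControl, chromosomes 1 and 3 lay above and 16 and 20 below.

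Chromosome X, singled out after its values were seen, was the chromosome with the largest share of losses with PladB but not with siControl, where 12.3% (10.3 to 14.6%) of its peaks were lost. Chromosome 22 was close to X, with 15.4% (11.9 to 19.5%) of its peaks lost with PladB and 12.5% (9.39 to 16.4%) with siControl. Chromosome X also had the smallest increase in peak number, from 887 with DMSO to 910 with PladB, a ratio of 1.03 against 1.08 for the whole lists. The siControl list held 1003 peaks on X, and 18.8% (16.5 to 21.4%) of these had no PladB peak, against 15.4% for all siControl peaks. X was not apart in that comparison: the interval also lay above the overall share on 5, 16, 17 and Y, and Y was highest at 22.8%. The median DMSO score on X was 208, the lowest of the 24 chromosomes together with 22 and 17, which round to the same value. Among the lower 50% of DMSO peaks by score, 28.2% (24.3 to 32.4%) of those on X were lost with PladB, against 23.4% (22.8 to 24.1%) for all chromosomes and 22.5% (19.0 to 26.4%) on X with siControl. Chromosome 22 was higher than X on this score-limited measure, at 28.6% (22.6 to 35.5%) with PladB and 23.2% (17.7 to 29.8%) with siControl. The intervals for PladB and siControl on X overlap. Both look up the same DMSO peaks, so this overlap does not measure the difference between them, which was not tested. The PladB library is the same one in each of these comparisons, so they do not repeat the measurement.

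The largest shares of gained peaks were found on 21, 19, 22 and Y with PladB and on Y, 21 and 22 with siControl, which are short chromosomes. Chromosome 18, shorter than 16 and 17, had the second lowest PladB share, at 17.0% (14.4 to 19.9%), and a siControl share of 20.9%, below the overall one. PladB peaks without a DMSO peak made up 25.5% (21.0 to 30.5%) on chromosome 21, 25.1% on 19 and 24.8% on 22, and the interval also lay above the overall 19.4% on 16 and 17. The lowest share was 16.3% on chromosome 7. With siControl the interval lay above the overall share on these 5 chromosomes and on 15, 20 and Y, up to 33.8% on Y. On Y the PladB share was 24.6% (19.0 to 31.2%).

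**Figure D4:**
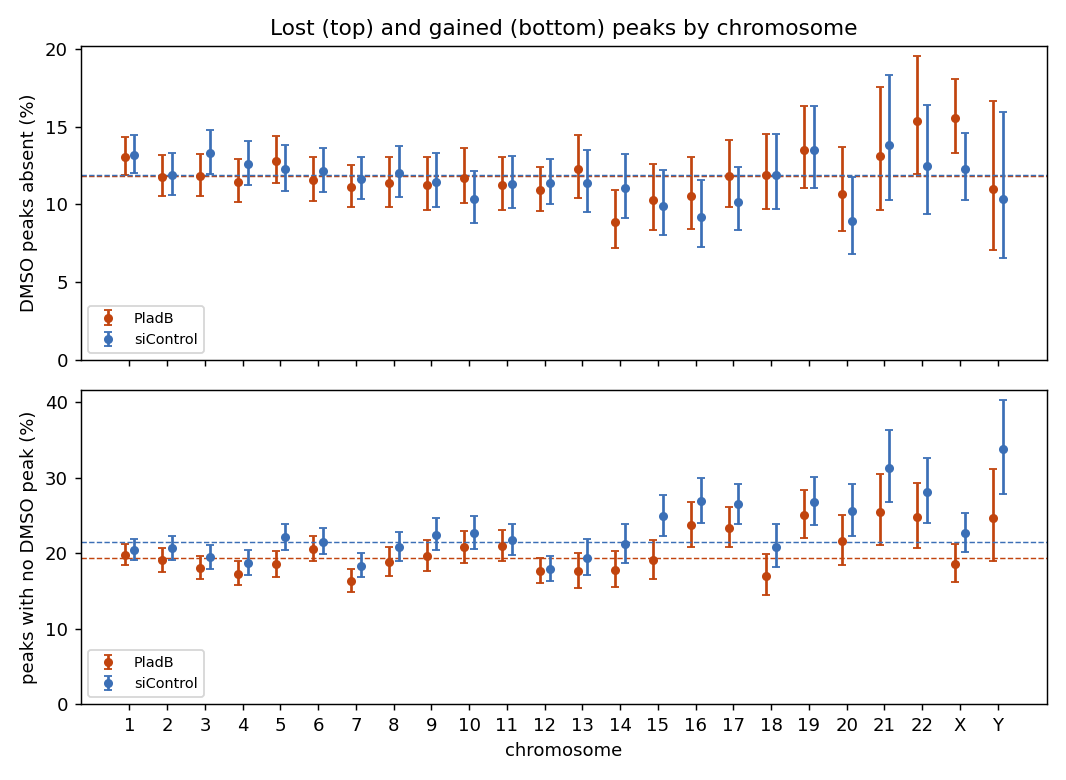
Share of DMSO peaks with no partner (top) and of PladB or siControl peaks with no DMSO peak (bottom) on each chromosome, in percent with Wilson 95% intervals. PladB is orange, siControl blue, and dashed lines mark the shares over all chromosomes. In the top panel the PladB point lies above the siControl point for chromosome X (15.6% and 12.3%) and likewise for 22 (15.4% and 12.5%). In the bottom panel both libraries are high on 16, 17, 19, 21 and 22 but not on 18.

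The other 9 lists of the series, which the definition of kept, lost and gained did not use, called few of the sites that differed. They comprise 3 parental libraries, from cells given stereoprobe WX-02-23 (20 µM), stereoprobe WX-02-43 (20 µM) or a small interfering RNA named for FOXA1 (siFOXA1). The other 6 come from engineered 22Rv1 cells that overexpress Y36C-PHF5A and carry a doxycycline-inducible FOXA1, wild type (WT) or C258A. Each was profiled with DMSO and no doxycycline, and with doxycycline plus DMSO or WX-02-23. At least 1 of these 9 lists called 80.0% (79.6 to 80.5%) of kept DMSO peaks, 31.0% (29.5 to 32.6%) of lost ones and 31.0% (29.9 to 32.2%) of gained PladB peaks. For siControl the corresponding shares were 79.8%, 33.0% and 30.9%. The intervals for peaks lost and gained with PladB overlap in this union of 9 lists. They do not in uninduced WT cells, which called 1.55% (1.20 to 2.01%) of lost and 2.57% (2.21 to 2.99%) of gained peaks. Overlap of intervals is not a test of a difference, and single lists leaned either way. The siFOXA1 list called 0.249% (0.131 to 0.473%) of lost and 0.624% (0.459 to 0.848%) of gained peaks. Induced C258A cells with WX-02-23 called 8.06% (7.22 to 8.99%) and 6.88% (6.28 to 7.52%).

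Among single lists, WX-02-43 called the largest share of kept peaks, at 62.0%, but 6.70% of lost and 7.61% of gained ones. WX-02-23 called 52.1% of kept, 10.4% of lost and 10.7% of gained peaks. Lost and gained peaks were called most often in induced WT cells with DMSO, at 13.9% (12.8 to 15.0%) and 13.4% (12.5 to 14.2%), where 39.6% of kept peaks were called. This list was the longest of the 9, with 31735 peaks, against 18228 for WX-02-43, 17217 for WX-02-23 and 8575 for uninduced WT cells. Whether list length accounts for these shares was not tested. The siFOXA1 list, the shortest with 3018 peaks, called 4.42% of kept, 0.249% of lost and 0.624% of gained peaks. Gained PladB peaks that siControl also called, 3518 in all, were found in at least 1 of the 9 lists at 37.0% (35.4 to 38.6%), and the 2893 that siControl did not call at 23.9% (22.3 to 25.4%). Their median PladB scores were 125 and 107.

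Weak kept sites were called elsewhere more often than weak lost sites. Among the lowest 20% of DMSO peaks by score, 46.9% (45.2 to 48.5%) of kept and 27.9% (26.2 to 29.7%) of lost peaks were called in at least 1 of the 9 lists. The same split by siControl gave 46.3% (44.7 to 48.0%) and 28.4% (26.6 to 30.2%), with intervals that overlap those for PladB. Without doxycycline, WT cells called 4.42% (3.79 to 5.13%) of these weak kept peaks and 1.25% (0.879 to 1.76%) of the lost ones, and C258A cells 11.2% and 4.78%. The induced WT list with DMSO called 17.9% (16.7 to 19.2%) and 13.3% (12.1 to 14.7%). The induced C258A list with DMSO called 5.77% (5.06 to 6.58%) and 4.66% (3.90 to 5.56%). These lists differ in length, with 8575 peaks in uninduced and 31735 in induced WT cells, and 12752 and 13299 in C258A cells. Within this lowest 20% the median DMSO score was 106 for kept and 102 for lost peaks, so score still differed between them. By the rule, kept sites were also already called in 2 lists and lost sites in 1, so the 2 sets are not alike in other respects either.

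**Figure D5:**
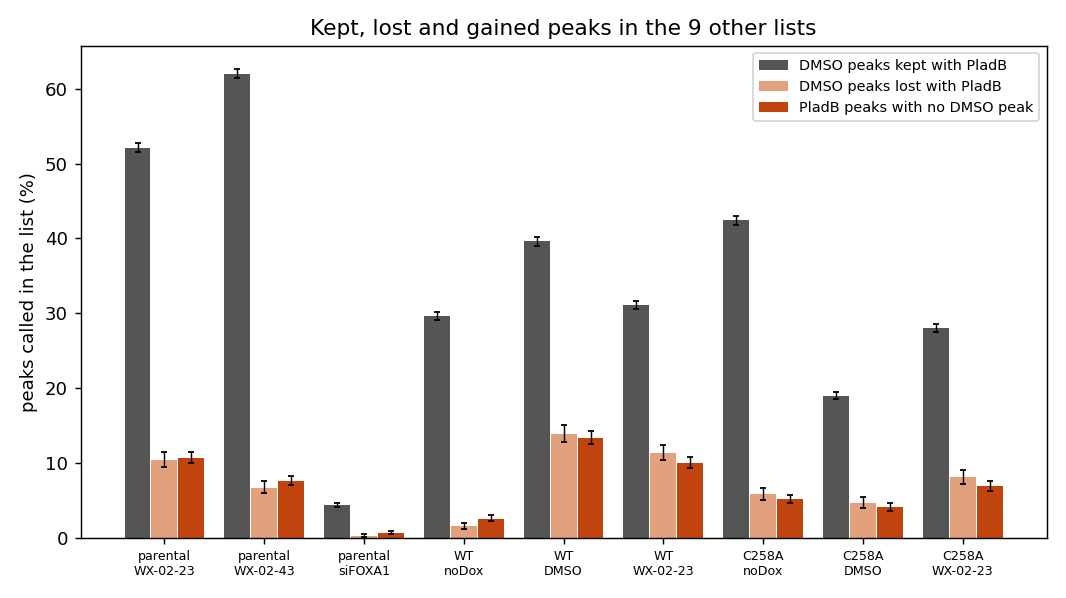
Share of DMSO peaks kept with PladB (grey), DMSO peaks lost with PladB (light orange) and PladB peaks with no DMSO peak (dark orange) that were called in each of the 9 other lists, in percent with Wilson 95% intervals. In every list the kept peaks stand above both other sets, which lie close to each other.

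Single sites were named by rule, as the strongest of each set, with positions in build hg19. The genes near them were not analysed here. The 3 strongest DMSO peaks called in all 3 lists lay at chr3:195586247-195588120, chr7:84158267-84159820 and chr4:57487506-57489166. Their scores were 3228.29, 3209.78 and 3206.53 with DMSO, 3113.56, 2707.21 and 3100 with PladB, and 2660.49, 2911.8 and 2813.18 with siControl. All 3 were called in 11 of the 12 lists, siFOXA1 being the exception.

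The 2 strongest lost peaks were neighbours on chromosome 1, at chr1:161414952-161418444 and chr1:161422226-161426856, with DMSO scores of 540.23 and 492.21. They ranked 6712 and 7472 of 30557 and were 3493 and 4631 bp wide, several times the median width. Both lay in a dense run of 8 DMSO peaks within a 40 kb window. There PladB had 2 peaks with scores of 96.14 and 104.69, the second of which was 13003 bp wide, the widest of its list. With siControl the window held 3 peaks, with a highest score of 340.38 and a widest peak of 12605 bp. Neither of the named peaks was called with siControl. WX-02-23 scored them 762.15 and 801.35, WX-02-43 scored them 473.19 and 481.88, and the 6 lists of the engineered lines held no peak in the window. The window was chosen after the positions were seen.

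The other strong lost peaks were single sites. The peak at chrX:19470171-19470503 had a DMSO score of 474.83 and was absent with siControl too, but was called with both stereoprobes and with siFOXA1. The peak at chr19:51294075-51294907, with a DMSO score of 438.33, was called with siControl at 273.11 and in uninduced C258A cells at 151.31. The peak at chr7:5564121-5566743 was 2623 bp wide, scored 326.04 with DMSO and 191.81 with siControl, and was called in no other list. The nearest PladB peak lay 2.15 kb away. Among DMSO peaks called with siControl but not PladB, 1492 in all, the chromosome 19 and 7 sites were the strongest. The next was chr18:25736188-25737015, with scores of 316.61 with DMSO and 135.09 with siControl.

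One gained peak was among the strongest of the PladB list. At chr5:79646627-79647922 the PladB score was 3100, the value shared by many peaks at the top of the list, and the nearest DMSO peak lay 73.0 kb away. The same site scored 3100 with siFOXA1, 1413.75 with WX-02-23, 1037.59 with WX-02-43 and 257.9 with siControl. It was called in none of the 6 engineered lists. It ranked first of the 3018 siFOXA1 peaks and tied at rank 22 of 33121 with PladB, but ranked 15106 of 34119 with siControl.

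The next gained peak was at chr9:134954868-134955478, with a PladB score of 682.65 and a DMSO peak 1.14 kb away. It was absent with siControl as well and was called with WX-02-23 at 254.14, with WX-02-43 at 286.27 and with siFOXA1 at 856.3. The remaining 3 were called with siControl. At chr5:125705942-125707363 the scores were 455.89 with PladB and 224.03 with siControl, at chrX:2546954-2548977 they were 368.4 and 133.06, and at chr20:8311240-8312007 they were 360.82 and 378.94. The chromosome 20 site was called in 7 of the 12 lists, among them the 4 lists of doxycycline-treated engineered cells.

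PladB peaks absent from both DMSO and siControl numbered 2893. After the chromosome 9 site, the strongest were chrX:77359226-77359958, with a score of 331.6, and chr16:56485153-56486522, with a score of 294.03. The first was also called with WX-02-23, WX-02-43 and siFOXA1, and the second with WX-02-23. None of these 3 sites was called in an engineered line, and none was called with PladB alone among the 12 lists.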

How the data were processed

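FOXA1 ChIP-seq peaks were analysed as deposited, 1 BED list per library, so peaks were not pooled. Bowtie2, bcl2fastq and build hg19 are named in the submitters' processing notes, and peak names begin with MACS. Caller version, thresholds and control are not given in the sources used here. The deposited score of each peak is the authors' value. Peaks were ranked by it within a list, and where scores of several lists stand side by side, or share a minimum, whether they are on 1 scale was not tested. Starts were read as counted from 0 and are printed counted from 1.

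Peaks were taken as shared at an overlap of 1 bp or more. Counts equalled those of bedtools 2.31.1, and the overlap code was tested on simulated data. Intervals are Wilson 95% (scipy 1.17.1). Read depth is unknown. The alternatives were 50% reciprocal overlap, a 500 bp gap, equal list length, the top 50%, a score of at least 150, and autosomes alone. Named peaks are the strongest by score of each set (5 lost, 5 gained, 3 lost but called with siControl, 3 with PladB but neither control, 3 in all). Members, rules and lists were chosen with earlier results of these data known. No genome or annotation of hg19 was used, so sequence, motifs and genes were not analysed here.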

Additional observations from a re-analysis of the deposited data

How the results depend on the processing

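Of 36 alternative values for 6 shares, 6 stayed within the interval of the share as reported, all from autosomes alone, and 30 moved. They are given in the order DMSO peaks called with PladB, PladB peaks with no DMSO peak, DMSO peaks called with siControl, siControl peaks with no DMSO peak, siControl peaks called with PladB, and PladB peaks with no siControl peak. A reciprocal overlap of 50% gave 85.3%, 21.3%, 85.8%, 23.2%, 83.3% and 14.2%. A gap of up to 500 bp gave 88.6%, 18.7%, 88.6%, 20.8%, 85.1% and 12.7%. Lists of the DMSO length gave 85.2%, 15.6%, 84.2%, 16.3%, 86.4% and 13.9%. The top 50% of each list gave 91.5%, 15.9%, 90.8%, 18.8%, 86.8% and 10.7%. A score of at least 150 gave 90.5%, 16.5%, 89.8%, 18.8%, 86.6% and 11.6%. Stricter overlap lowers called shares and a gap raises them by construction. The share of DMSO peaks called with PladB was at or above that with siControl in 5 of the 6 alternatives, the exception being the reciprocal overlap, and the gained share with PladB was below that with siControl in all 6. No paired analysis was possible because each group has 1 library. The precision of each list is limited by its unknown depth.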

Other observations

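Wide peaks were seldom lost in either comparison. Of the widest 10% of DMSO peaks, 19 of 3055 (0.622%, 0.399 to 0.969%) were lost with PladB and 28 (0.917%, 0.635 to 1.32%) with siControl. Of the widest 10% of each list, 132 of 3312 PladB peaks (3.99%, 3.37 to 4.71%) and 145 of 3411 siControl peaks (4.25%, 3.62 to 4.98%) had no DMSO peak. Among peaks of 1500 bp or wider the libraries were further apart: 55 of 1802 PladB peaks (3.05%, 2.35 to 3.95%) and 63 of 1335 siControl peaks (4.72%, 3.71 to 5.99%) had no DMSO peak. Of the 970 DMSO peaks of that width, 9 (0.928%, 0.489 to 1.75%) were lost with PladB and 14 (1.44%, 0.862 to 2.41%) with siControl. In the widest 10% of the PladB list, gained peaks had a median score of 158, against 975 for all peaks of that class. This look at wide peaks was chosen after the named sites were seen.

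Few weak peaks of either kind were called in the siFOXA1 list. Of the 6411 gained PladB peaks, 40 (0.624%, 0.459 to 0.848%) overlapped a siFOXA1 peak, and of the 7331 gained siControl peaks, 125 did (1.71%, 1.43 to 2.03%). Within the lower 50% of the PladB list by score, siFOXA1 called 36 of 6254 gained peaks (0.576%, 0.416 to 0.796%) and 38 of 10307 peaks shared with DMSO (0.369%, 0.269 to 0.506%), and these intervals overlap. Among kept DMSO peaks of all scores the share was 4.42%. The 2 strongest gained PladB peaks, on chromosomes 5 and 9, belong to these 40.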
